A study of Mus musculus with 6 samples.

Results

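The markers of colon stem and lower crypt cells were read as 10 genes, Lgr5, Smoc2, Ascl2, Sox9, Ephb2, Ephb3, Cd44, Prom1, Slc12a2 and Tnfrsf19, taken by symbol from the 52550 Ensembl identifiers listed in each library, and each symbol matched 1 identifier. RNA sequencing had been done on epithelial cells isolated from the colon of adult male Apc Min/+ mice, aged 5 to 6 weeks. Every mouse, controls included, carried the Min allele, a truncating mutation of 1 copy of Apc, and wild-type mice are not analysed here. The control group received 2% Tween 80, the vehicle, and the treated group received atorvastatin at 20 mg/kg, each by oral gavage on alternate days. Atorvastatin is a statin, an inhibitor of the rate-limiting enzyme of cholesterol synthesis. Each group had 3 libraries, numbered as replicates. The labels do not say whether each library came from its own animal, so the p-values measure only the spread between these libraries, which may be technical. They also do not say whether tumour and normal mucosa were kept apart.

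The crypts of the colon are renewed from stem cells at their base, which are kept dividing by WNT ligands and by R-spondins, secreted proteins that prolong WNT receptor signalling. Cells leave the base, divide further up in the crypt and differentiate as they approach the surface. Apc belongs to the complex that degrades beta-catenin, the effector of this pathway, and several of the 10 markers are textbook targets of beta-catenin and its TCF partners. Some, such as Lgr5, mark the stem cells themselves, while others, such as Slc12a2, Sox9 and Cd44, extend into the lower crypt.

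Values are FPKM, fragments scaled to gene length and to the number of mapped fragments. Library totals ran from 407857 to 430832 FPKM, and 11456 to 11655 genes stood at 1 FPKM or more. The number of reads behind a value is unknown, so no counting interval is given. The isolates had the defining markers of epithelium, with Epcam at 479 to 565 FPKM. Fibroblast, smooth muscle, endothelial and glial markers were low: 9 of 12 and 7 of 7 stayed under 1 FPKM in every library. The 15 leukocyte markers summed to 18.0 to 33.1 FPKM in control and 13.0 to 14.6 FPKM with atorvastatin. In bulk RNA such as this, fewer cells of a type and less RNA per cell cannot be told apart.

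The measured shifts of the 10 markers varied in size and sign. On the plain log2 FPKM scale, the differences between atorvastatin and control ran from -0.33 for Prom1 to 0.68 for Lgr5, and 5 of the 10 lay within 0.1 of 0. Lgr5 and Smoc2 were higher in all 3 atorvastatin libraries than in any control, and Prom1 was lower in all 3. None of the 8 markers that could be tested passed limma's test on log2(FPKM + 1) at an adjusted p under 0.05, which 47 of 11644 genes passed (0.404%). On plain log2 FPKM none of the 8 passed either, against 0.309% of 11639 genes. Before adjustment, 3 higher markers (Lgr5, Smoc2 and Ephb3) and 1 lower marker (Prom1) had a limma p under 0.05, where 7.75% of all tested genes were higher and 4.27% lower. Groups without overlap were found for 2 higher and 1 lower of the 8, against backgrounds of 12.0% and 6.05%. Lgr5 is in both of these tallies, although it entered the fits only through its atorvastatin libraries, so its place in them is a description only. Ascl2 and Tnfrsf19 did not reach 1 FPKM in any library and were left out of these fits.

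**Figure D1:**
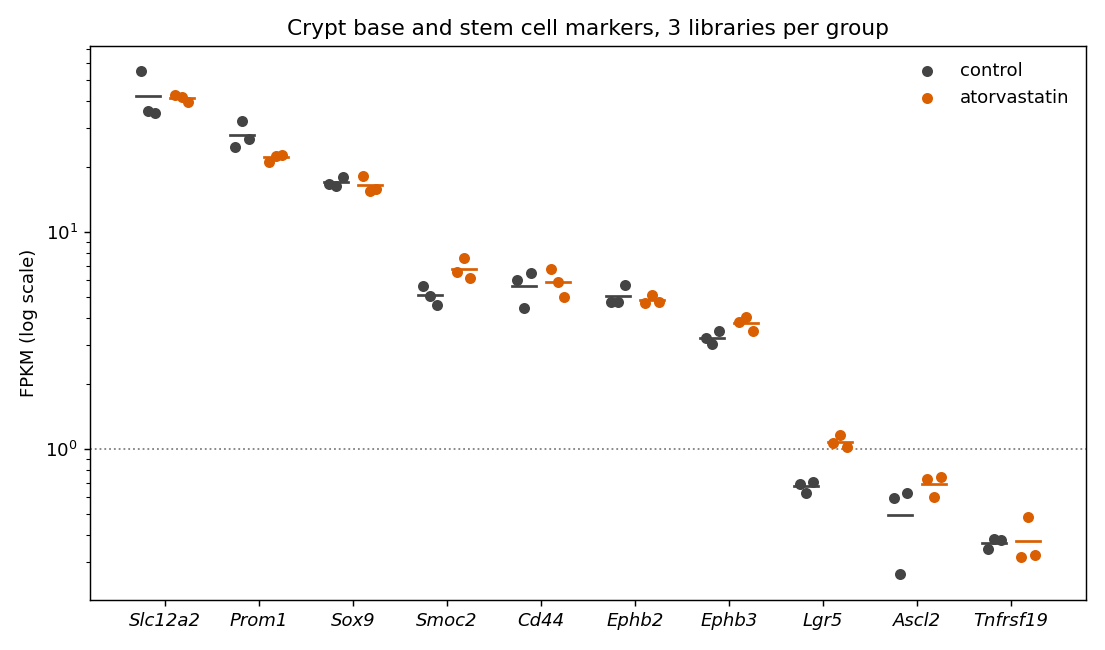
FPKM of the 10 markers on a log axis, with 1 point per library (dark grey for control, orange for atorvastatin), a bar at each group mean, and a dotted line at 1 FPKM. Lgr5 is the marker whose control libraries lie below the line (0.627 to 0.706 FPKM) and whose atorvastatin libraries lie above it (1.02 to 1.16 FPKM).

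The levels fell into a fixed order at the top and an unsettled one in the middle. Slc12a2 was the most abundant at a mean of 41.8 ± 7.22 FPKM (SD over 6 libraries), followed by Prom1 at 25.0 ± 4.21 FPKM and Sox9 at 16.7 ± 1.05 FPKM, and these 3 did not overlap in range. Smoc2, Cd44 and Ephb2 lay close together at 5.92 ± 1.07, 5.76 ± 0.881 and 4.96 ± 0.389 FPKM. Smoc2 exceeded Cd44 in 3 of 6 libraries and Cd44 exceeded Ephb2 in 5, so the order of these neighbours did not stand out from their spread. Ephb3 followed at 3.52 ± 0.369 FPKM, below Ephb2 in every library. Lgr5 stood at 0.878 ± 0.229 FPKM, Ascl2 at 0.592 ± 0.173 FPKM and Tnfrsf19 at 0.373 ± 0.0618 FPKM. The range of Ascl2 overlapped those of both Lgr5 and Tnfrsf19, although Lgr5 exceeded Ascl2 in each of the 6 libraries.

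Lgr5 encodes a receptor for R-spondins and is the reference marker of the cycling stem cell at the crypt base. The gene (ENSMUSG00000020140) lies on chromosome 10 from 115450311 to 115587780, minus strand, on the GRCm38 assembly. It was at 0.691, 0.627 and 0.706 FPKM in control replicates 1, 2 and 3 and at 1.06, 1.16 and 1.02 FPKM in atorvastatin replicates 1, 2 and 3. The lowest treated library was above the highest control, and within each group the values were tight. The means were 0.675 ± 0.0421 and 1.08 ± 0.0672 FPKM (SD, n = 3 each), which is 60.3% more with atorvastatin.

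The log2 difference of Lgr5 was 0.31 ± 0.07 (limma SE) on log2(FPKM + 1) with an adjusted p of 0.142, and 0.68 ± 0.15 on plain log2 FPKM with an adjusted p of 0.141 (95% interval 0.32 to 1.04). At this level the pseudocount of 1 shrank the difference. The plain difference exceeded that of 99.2% of the 11639 genes tested on that scale. That rank, the p-values and the interval are descriptions only, because of how Lgr5 passed the filter. Lgr5 entered these fits only through its atorvastatin libraries, since no control reached 1 FPKM, and 28 tested genes, Lgr5 among them, had that pattern, while 15 had the opposite one. With genes kept by a mean of at least 0.3 FPKM over the 6 libraries, a filter added after seeing the data, the adjusted p of Lgr5 was 0.123 on log2(FPKM + 1) and 0.128 on plain log2 FPKM. With limma neither trended nor robust it was 0.0406 on plain log2 FPKM, the sole fit in which Lgr5 passed, in a range of 0.0406 to 0.393 over 14 alternatives. That fit kept the filter of 1 FPKM, so its value is a description as well. A gene annotated on the opposite strand of the same locus, A930009A15Rik, was listed at 0 in every library.

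Smoc2, a secreted calcium-binding matrix protein of the Lgr5 stem cell signature (ENSMUSG00000023886, chromosome 17, 14279506 to 14404790, plus strand), was the other marker with higher values and no overlap. It was at 5.62, 5.09 and 4.60 FPKM in control and at 6.51, 7.59 and 6.11 FPKM with atorvastatin. Atorvastatin replicate 2 was the highest library and control replicate 3 the lowest. The means of 5.11 ± 0.513 and 6.74 ± 0.768 FPKM differ by 32.0%, and the plain log2 difference was 0.40 ± 0.11 (limma adjusted p = 0.212, 95% interval 0.14 to 0.66). Because Smoc2 lies well above 1 FPKM, the pseudocount changed little, with 0.34 ± 0.09 on log2(FPKM + 1) (limma adjusted p = 0.207).

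Ascl2 encodes a basic helix-loop-helix transcription factor that holds stem cell identity in the crypt and responds to WNT (ENSMUSG00000009248, chromosome 7, 142966829 to 142969264, minus strand). It was at 0.596, 0.264 and 0.627 FPKM in control and at 0.729, 0.599 and 0.739 FPKM with atorvastatin. The groups overlapped narrowly: atorvastatin replicate 2 lay just under control replicate 3, and control replicate 2 stood far below the other 5. Its plain log2 difference was 0.57 ± 0.42 (SE from the pooled SD, n = 3 each), with an exact two-sided permutation p of 0.2, where 3 against 3 libraries cannot go below 0.1. Without control replicate 2 the difference was 0.17, and without any other single library it was 0.52 to 0.79. Its exon length in GENCODE is 1623 bases, against 10264 for Lgr5, so at equal FPKM fewer fragments stand behind an Ascl2 value.

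Tnfrsf19, also called Troy, is a receptor of the tumour necrosis factor family found on crypt base stem cells (ENSMUSG00000060548, chromosome 14, 60963875 to 61046490, minus strand). It was at 0.345, 0.384 and 0.379 FPKM in control and at 0.319, 0.487 and 0.325 FPKM with atorvastatin. The treated libraries lay on both sides of the controls, with replicate 2 the highest and replicates 1 and 3 the lowest of all 6. The means were 0.370 ± 0.0213 and 0.377 ± 0.0952 FPKM (exact two-sided permutation p = 1.0 on log2 FPKM, n = 3 each). The SE of the log2 difference was 0.20 (from the pooled SD), close to the 0.22 seen for Ephb3 below, so a shift of that size was not detectable for Tnfrsf19.

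Ephb2 and Ephb3 are receptor tyrosine kinases that sort cells along the crypt axis through contact with ephrin-B ligands, and both are known TCF targets. Ephb2 (ENSMUSG00000028664, chromosome 4, 136647539 to 136835988, minus strand) was at 4.76, 4.78 and 5.70 FPKM in control and at 4.70, 5.11 and 4.74 FPKM with atorvastatin. The groups overlapped, and the plain log2 difference was -0.06 ± 0.09 (limma adjusted p = 0.85, 95% interval -0.28 to 0.15). Ephb3 (ENSMUSG00000005958, chromosome 16, 21204755 to 21223305, plus strand) was at 3.25, 3.04 and 3.48 FPKM in control and at 3.85, 4.04 and 3.48 FPKM with atorvastatin. Atorvastatin replicate 3 was level with control replicate 3, and the other treated libraries were above all controls. The plain log2 difference of Ephb3 was 0.22 ± 0.09 (limma adjusted p = 0.409, 95% interval 0.00 to 0.43). Within libraries the Ephb3 to Ephb2 ratio was higher in every atorvastatin library than in any control, and Ephb3 shifted more than Ephb2 by 0.28 ± 0.07 (SE, log2).

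The sequences before the annotated starts of these paralogs are shown because their ratio differed between the groups without overlap. They come from RefSeq on GRCm38.p6, run 5′ to 3′ on the strand of the gene and stop before the RefSeq start for Ephb2 and before the GENCODE start for Ephb3. Ephb2 is chr4:136836013-136836262 on the minus strand, and Ephb3 is chr16:21204545-21204754 on the plus strand. Capitals mark matches to the motifs searched on both strands. These were the TCF/LEF letters CTTTGAA and its variants CTTTGAT or else CTTTGTA or else CTTTGTT, and the hexamer CAGCTG, an E-box of the kind bound by factors of the Ascl2 family, which reads the same on both strands and shares no overlap with the former.
Ephb2: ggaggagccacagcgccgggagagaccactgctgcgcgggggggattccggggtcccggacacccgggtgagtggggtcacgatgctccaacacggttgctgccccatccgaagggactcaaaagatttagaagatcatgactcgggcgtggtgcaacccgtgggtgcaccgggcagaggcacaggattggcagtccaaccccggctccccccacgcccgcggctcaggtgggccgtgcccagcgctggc
Ephb3: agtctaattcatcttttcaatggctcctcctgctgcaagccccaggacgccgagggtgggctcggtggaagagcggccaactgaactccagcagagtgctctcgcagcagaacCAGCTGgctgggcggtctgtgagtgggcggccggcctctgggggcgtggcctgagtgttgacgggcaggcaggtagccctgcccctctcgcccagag
Ephb3 held 1 CAGCTG, whose first base lies 97 bases before the GENCODE start of the gene and 137 before the RefSeq start, and Ephb2 held no match to either motif. Among the 32851 RefSeq windows of 250 bases, 13.0% held CAGCTG and 14.8% the TCF letters, so neither match is rare. The table had windows for 6 of the 10 markers (8 windows), and the others are Lgr5, Smoc2, Sox9 and Slc12a2. Of these 8 windows, an alternative start of Tnfrsf19 held 1 match to each motif, and those of Ascl2, Cd44 and Prom1 held none.

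Sox9, an HMG-box transcription factor of the lower crypt, was among the flat markers (ENSMUSG00000000567, chromosome 11, 112782224 to 112787760, plus strand). It was at 16.7, 16.2 and 17.9 FPKM in control and at 18.1, 15.5 and 15.8 FPKM with atorvastatin. The highest library and both of the lowest were atorvastatin libraries. The plain log2 difference was -0.04 ± 0.07 (limma adjusted p = 0.888, 95% interval -0.22 to 0.14). That upper limit is below the differences seen for Lgr5 and Smoc2, but as rounded it equals the lower limit of the Smoc2 interval.

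Cd44, a hyaluronan receptor of crypt cells that leukocytes also carry, varied widely within both groups (ENSMUSG00000005087, chromosome 2, 102811141 to 102901665, minus strand). It was at 5.99, 4.44 and 6.49 FPKM in control and at 6.76, 5.86 and 5.04 FPKM with atorvastatin. The plain log2 difference was 0.07 ± 0.17 (limma adjusted p = 0.915, 95% interval -0.32 to 0.46). Its sign changed when control replicate 2 (-0.09) or atorvastatin replicate 1 (-0.03) was left out. The leukocyte markers summed lower with atorvastatin, as given above, and their part in the Cd44 value was not tested.

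Slc12a2, or NKCC1, carries sodium, potassium and chloride into crypt cells across the basolateral membrane for chloride secretion (ENSMUSG00000024597, chromosome 18, 57878678 to 57946821, plus strand). It was at 55.1, 35.9 and 35.3 FPKM in control and at 42.8, 42.0 and 39.7 FPKM with atorvastatin. Control replicate 1 was the highest of all and the other controls the lowest, so the treated libraries lay inside the control range. The plain log2 difference was 0.01 ± 0.17 (limma adjusted p = 0.987). Its sign depended on single libraries: it was 0.22 without control replicate 1 and -0.10 without control replicate 3.

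Prom1, which encodes the pentaspan membrane glycoprotein CD133, was the one marker with lower values and no overlap (ENSMUSG00000029086, chromosome 5, 43993620 to 44102032, minus strand). It was at 24.5, 32.6 and 26.7 FPKM in control and at 21.1, 22.4 and 22.6 FPKM with atorvastatin. The treated libraries were close to one another, while control replicate 2 stood above the rest. The means of 27.9 ± 4.20 and 22.1 ± 0.796 FPKM are 21.1% apart, relative to control, and the plain log2 difference was -0.33 ± 0.10 (limma adjusted p = 0.276, 95% interval -0.58 to -0.09). Without control replicate 2 the difference was -0.21. Only 3.96% of the tested genes had a lower plain difference. Gm16401 and Gm42716, annotated within the span of Prom1, stood at 0.404 to 1.01 and 0.237 to 0.326 FPKM. Gm16401 lies on the opposite strand, and since the strand setting of the counting is not given, its reads and those of Prom1 cannot be told apart.

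**Figure D2:**
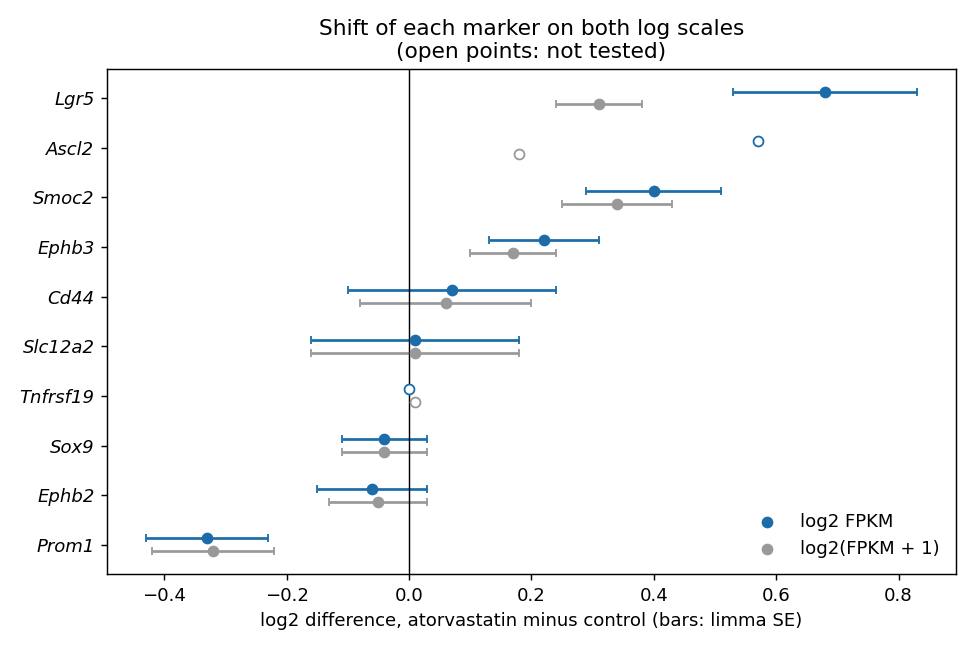
Log2 difference, atorvastatin minus control, of each marker on plain log2 FPKM (blue) and log2(FPKM + 1) (grey), with limma standard errors as bars; open points are the untested Ascl2 and Tnfrsf19, drawn without bars. The scales part most for Lgr5, at 0.68 and 0.31, and Ascl2, at 0.57 and 0.18, and hardly for Prom1, at -0.33 and -0.32.

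Set against one another within each library, which removes any effect of library scaling, the markers differed in the size and sign of their shifts. Of the 45 pairs, 19 had ratios that did not overlap between the groups, where 18.9% of all pairs of tested genes had such ratios. The 45 include pairs with the untested Ascl2 and Tnfrsf19. The pairs share genes and are not independent. The largest contrast was Lgr5 against Prom1. The log2 ratio of Lgr5 to Prom1 was -5.15, -5.70 and -5.24 in control and -4.31, -4.28 and -4.46 with atorvastatin. All treated ratios were above all controls, and Lgr5 gained 1.01 ± 0.18 (SE) on Prom1, a 2.02-fold change of their ratio.

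Lgr5 took part in 7 of the 19 pairs and Prom1 in 6. The Lgr5 to Ephb2 log2 ratio was -2.78, -2.93 and -3.01 in control and -2.14, -2.14 and -2.21 with atorvastatin, a gain of 0.74 ± 0.07. Lgr5 gained 0.72 ± 0.10 on Sox9, 0.68 ± 0.17 on Tnfrsf19, 0.67 ± 0.21 on Slc12a2, 0.61 ± 0.16 on Cd44 and 0.46 ± 0.03 on Ephb3. The ratios of Lgr5 to Smoc2 and to Ascl2 overlapped between the groups, with gains of 0.28 ± 0.11 and 0.11 ± 0.38. Smoc2 gained 0.73 ± 0.19 on Prom1, 0.46 ± 0.17 on Ephb2, 0.44 ± 0.18 on Sox9 and 0.39 ± 0.16 on Slc12a2, each without overlap. Every pair without overlap had an exact two-sided permutation p of 0.1, the smallest that 3 against 3 libraries can give, and 0.237 after adjustment over the 45 pairs. None of these contrasts could therefore pass 0.05.

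**Figure D3:**
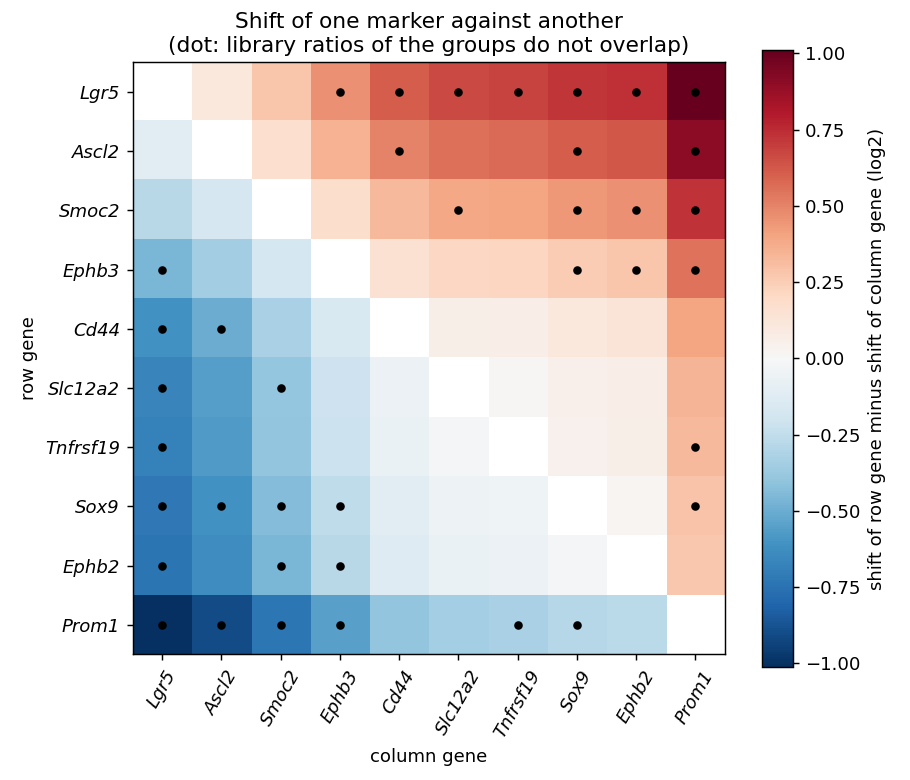
Shift of the row gene minus shift of the column gene (log2, atorvastatin minus control) for the 45 pairs of markers, each drawn in both orders; a dot marks a pair whose library ratios do not overlap between the groups. The Lgr5 row carries 7 dots and the largest value, 1.01 against Prom1.

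Other genes of the crypt base made a list of 18 apart from the 10 markers. Of these, 12 were tested, with plain log2 differences of -0.07 to 0.35, none passed limma's test over all genes, 10 had positive and 2 negative differences, and the median plain log2 difference was 0.15, against 0.02 over all tested genes. Kcnq1, a potassium channel subunit, was at 14.2 ± 0.369 and 16.4 ± 0.910 FPKM in control and atorvastatin (SD, n = 3 each; limma adjusted p = 0.237). Bmi1, a Polycomb subunit, was at 3.57 ± 0.092 and 4.08 ± 0.0931 FPKM (limma adjusted p = 0.326). Groups did not overlap for these 2 of the 12 tested genes, where 12.0% of all tested genes were higher without overlap. Lrig1, an inhibitor of growth factor receptors that marks stem cells, was at 21.8 ± 1.88 and 24.6 ± 0.939 FPKM (limma adjusted p = 0.41), and Cdca7 at 10.7 ± 1.08 and 11.9 ± 0.301 FPKM. Olfm4, a stem cell marker of the small intestine, was at 0.0666 FPKM or less in every library.

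The receptors and feedback genes of the WNT pathway showed no common shift. None of 13 tested genes of 19 passed limma's test, 8 were positive and 5 negative, and the median plain difference was 0.02. Lgr4, a relative of Lgr5 that also binds R-spondins, named here after its value was seen, was at 34.1 ± 1.46 and 34.6 ± 1.79 FPKM. Axin2, a feedback inhibitor and common readout of beta-catenin activity, was at 4.45, 3.28 and 5.10 FPKM in control and at 5.54, 4.12 and 5.62 FPKM with atorvastatin, which overlap. The smallest p-values of the list belonged to genes with lower values. Ctnnb1, which encodes beta-catenin, was at 115 ± 6.27 and 92.2 ± 14.1 FPKM (limma adjusted p = 0.296) and Tcf7 at 2.10 ± 0.351 and 1.61 ± 0.168 FPKM (limma adjusted p = 0.4).

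Genes listed for Notch signalling, a pathway that keeps stem cells from the secretory fate, gave no call among 7 tested of 11. Their median plain difference was 0.10. The list mixes receptors, ligands and targets, so this median is no measure of Notch activity. Among ephrin-B ligands and other Eph receptors, none of 7 tested genes of 10 passed, 5 were negative, and the median was -0.12. The ligand gene Efnb1 was at 44.5 ± 1.93 and 40.8 ± 1.25 FPKM (limma adjusted p = 0.44). The receptor gene Epha1 was at 8.97 ± 0.643 and 7.91 ± 0.0679 FPKM (limma adjusted p = 0.365). Groups did not overlap for these 2 of the 7, where 6.05% of all tested genes were lower without overlap. The deep crypt secretory cells, the neighbours of stem cells in the colon, had no called gene among 7. Of these 7, 4 were positive and 3 negative, with a median of 0.11, and the genes named next are among the positive ones. Agr2, a disulfide isomerase gene of secretory cells, was at 658 ± 53.4 and 766 ± 90.6 FPKM (limma adjusted p = 0.471). Reg4, their defining marker, was at 209 ± 67.9 and 256 ± 38.6 FPKM (limma adjusted p = 0.651), and Spink4 at 155 to 175 FPKM in control and 179 to 194 FPKM with atorvastatin (limma adjusted p = 0.309).

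At the surface end of the crypt axis, none of 12 tested colonocyte genes passed, 5 were positive and 7 negative, and the median was -0.02. Krt20, a keratin of differentiated cells, was at 251 ± 42.2 and 234 ± 32.3 FPKM. Lypd8, a secreted antibacterial surface protein, was at 4830 ± 580 and 3720 ± 474 FPKM (limma adjusted p = 0.266), without overlap. Of all tested genes, 6.05% were lower without overlap. Of 8 genes of regenerating or fetal-like epithelium, 7 were tested and none passed. Of these 7, 2 were positive, at up to 0.01, and 5 negative, and the median was -0.12, with Clu included. Clu, the marker of revival stem cells that appear after injury, was at 1.82, 1.48 and 2.10 FPKM in control and at 0.944, 0.780 and 0.818 FPKM with atorvastatin. All treated values of Clu lay below all controls, with a plain log2 difference of -1.08. Clu entered the fits only through its control libraries, since no treated library reached 1 FPKM, so its test value is not given. Ly6a, which encodes Sca-1, was at 80.8 ± 17.7 and 52.1 ± 9.14 FPKM (limma adjusted p = 0.248).

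Proliferation genes had higher values with atorvastatin. All 15 on a list of cell cycle genes had positive differences, where 6677 of all 11644 tested genes were positive and 4967 negative. Of the 15, 2 passed limma's test on log2(FPKM + 1), which 0.404% of all tested genes passed in either direction. These were Mcm5 (limma adjusted p = 0.0314) and Mcm6 (limma adjusted p = 0.0477, and 0.054 on plain log2 FPKM). The median plain difference was 0.39, in a range of 0.15 to 0.71 that includes the 0.68 of Lgr5. Summed over the list, the level was 149 to 183 FPKM in control and 207 to 237 FPKM with atorvastatin. Mki67, the gene of the Ki-67 antigen of dividing cells, was at 24.3, 26.3 and 33.5 FPKM in control and at 36.7, 44.9 and 34.9 FPKM with atorvastatin. It was among 10 of the 15 that were higher without overlap, where 12.0% of all tested genes were. Leukocyte genes that were tested had lower values: all 8 tested of 15 were negative, none passed, and the median was -0.87. The 7 untested genes, named after their values were seen, went both ways. Cd3e, Cd3g, Csf1r and Adgre1 had lower means with atorvastatin, while Cd79a, Ms4a1 and Itgam had higher ones, all under 1 FPKM. Igkc, an antibody light chain gene of plasma cells, was at 5.75 ± 2.31 and 1.71 ± 0.232 FPKM in control and atorvastatin (limma adjusted p = 0.139). Lck, a T cell kinase gene, had the smallest difference of the 8 tested, at 2.37 ± 0.211 and 1.69 ± 0.0923 FPKM (limma adjusted p = 0.139). The mitochondrial ribosomal RNA mt-Rnr1, named after its values were seen, was also lower with atorvastatin, at 1160 to 1526 FPKM against 1828 to 2631 FPKM. The part of these differences in the values of the 10 markers was not tested.

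**Figure D4:**
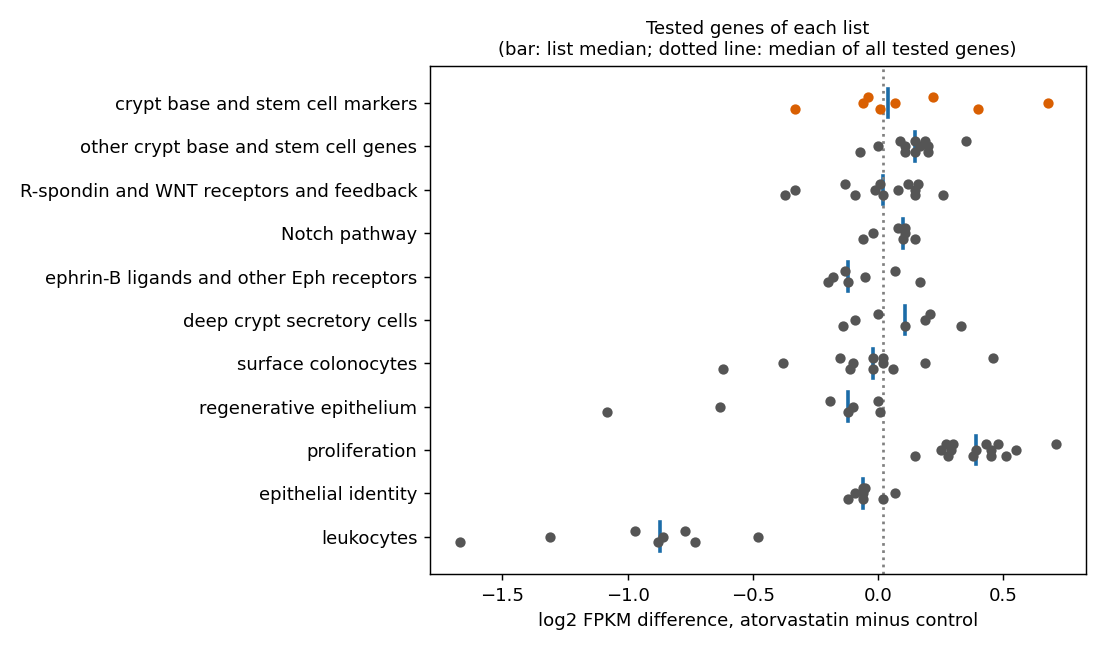
Plain log2 FPKM difference, atorvastatin minus control, of each tested gene by list (points, orange for the 8 tested markers). A blue bar marks the list median and a dotted line the median of all tested genes (0.02). The tested markers spread from -0.33 to 0.68 around a median of 0.04, while the proliferation genes lie between 0.15 and 0.71 and the leukocyte genes at or below -0.48.

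Across the 6 libraries the genes whose log2(FPKM + 1) values ran most like those of Lgr5 were Resp18, a secretory granule protein gene (Pearson r = 0.998), Mcm5, a subunit of the replicative helicase (0.997), and Zbtb4, a zinc finger protein gene (0.996). These are descriptions over 6 libraries in which the group difference makes up most of the spread. Zbtb4, like Lgr5, reached 1 FPKM only in the atorvastatin libraries and was among the genes compared only through them. Part of its likeness to Lgr5 is therefore set by the filter. Mcm5 was at 7.69 to 8.32 FPKM in control and at 10.7 to 11.3 FPKM with atorvastatin.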

How the data were processed

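Total RNA was sequenced in 3 control and 3 atorvastatin libraries. The authors deposited 1 FPKM value per gene and library. Bowtie, FastQC 0.11.2 and the mm10 build are named, per the submitters' processing notes. The quantification tool, annotation, strand setting and treatment of multiply mapped reads are not given in the sources used here. Symbols matched 99.72% of the identifiers, and coordinates came from GENCODE M21 on GRCm38, the assembly of mm10.

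A gene entered the fits if 3 or more of its 6 values reached 1 FPKM. Groups were compared with limma 3.58.1 in R 4.3.3 (trended, robust, two-sided, Benjamini-Hochberg over all tested genes) on log2(FPKM + 1), and on plain log2 FPKM where all 6 values were above 0. The fit was tested on simulated data. Marker pairs were compared by log2 ratios within libraries and exact permutation tests in SciPy 1.17.1. Alternatives changed the pseudocount, the filter, the scaling, limma's options and the libraries used, or added the replicate number as a block. The filter on the mean of 6 libraries was added after seeing the data.

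The markers and lists were chosen with earlier results of these data known. All 10 markers are named. Other lists are given by up to 4 tested genes with the smallest p, any gene past the threshold and a few standard markers (Mki67, Epcam, Krt20, Olfm4 and Axin2), and the 3 genes most like Lgr5 by Pearson correlation are named. Exceptions are stated where they occur.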

Additional observations from a re-analysis of the deposited data

How the results depend on the processing

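No marker passed on log2(FPKM + 1) under any of the alternatives run. On plain log2 FPKM, 1 marker (Lgr5) passed with limma neither trended nor robust, and none otherwise. That fit kept the filter that Lgr5 passed only through its atorvastatin libraries. Lgr5, Smoc2, Ephb3 and Prom1 kept their direction in every alternative, with plain log2 differences of 0.63 to 0.72, 0.31 to 0.47, 0.17 to 0.28 and -0.42 to -0.21. Slc12a2 changed sign with upper-quartile scaling (-0.02 on log2(FPKM + 1) and -0.01 on plain log2 FPKM), median-ratio scaling (-0.01 on both) and equal totals (-0.01 on both). Leaving out 1 library at a time gave -0.10 to 0.22 for Slc12a2 on both scales, -0.10 to 0.00076 and -0.11 to 0.0007 for Sox9, -0.09 to 0.02 and -0.11 to 0.02 for Ephb2, and -0.08 to 0.15 and -0.09 to 0.18 for Cd44 (log2(FPKM + 1) first). The untested Ascl2 and Tnfrsf19 ran from 0.17 to 0.79 and from -0.20 to 0.11 in the same way. The cause was not tested.

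The count of genes past the threshold was less stable. On log2(FPKM + 1) it was 47, against 2 with no filter on low values, and on plain log2 FPKM it was 36, against 56 with median-ratio scaling. Leaving out 1 library at a time gave 7 to 72 and 3 to 64. On log2(FPKM + 1) leaving out control replicates 1, 2 and 3 in turn gave 7, 30 and 72, and leaving out atorvastatin replicates 1 and 3 gave 13 and 18. The pairs of markers without overlap numbered 22 to 26, not 19, when 1 library was left out, and 20 on log2(FPKM + 1). Fewer libraries make overlap less likely by construction.

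Libraries with the same replicate number did not deviate together (correlations of -0.139, -0.106 and 0.014), so the numbers are not taken as pairs. With the replicate number as a block, 1 gene passed on either scale, and no call of a marker changed. The depth in reads is unknown, which limits what can be said of Lgr5, Ascl2 and Tnfrsf19.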

Other observations

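Some WNT feedback genes below 1 FPKM, named after their values were seen, stood apart in control replicate 1. Notum, a secreted WNT-inactivating enzyme, was listed at 0.216, 0.0285 and 0.0494 FPKM in control and at 0.0321, 0.0335 and 0.0337 FPKM with atorvastatin. Nkd1, an inhibitor of Dishevelled, was at 0.362, 0.0493 and 0.158 FPKM in control and at 0.125, 0.0908 and 0.104 FPKM with atorvastatin. Apcdd1, a WNT antagonist of the cell membrane, was at 0.316, 0.0979 and 0.0619 FPKM in control and at 0.102, 0.164 and 0.123 FPKM with atorvastatin. Sp5, another gene of the WNT list, was instead highest in control replicate 2, at 0.154 FPKM. Control replicate 1 had the highest Slc12a2 value, 55.1 FPKM. It also had the highest value of Dcn, a fibroblast gene, at 0.276 FPKM against 0.128 FPKM or less elsewhere. Of the other fibroblast and smooth muscle genes, Col1a1, Col1a2, Col3a1, Lum, Pdgfra, Pdgfrb and Vim were also highest there. Acta2, Myh11, Des and Tagln were not. Lgr5 in that library, at 0.691 FPKM, lay between the other controls.

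Dach1, also named after its values were seen, is a transcription factor gene on the list of other crypt base genes that did not reach 1 FPKM in any library. It was at 0.422, 0.579 and 0.435 FPKM in control and at 0.820, 0.640 and 0.703 FPKM with atorvastatin, without overlap. It was not tested by limma at the filter used.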
